A study of Mus musculus with 20 samples.

Results

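The comparison described here is the silencing of Brg1 in macrophages that received dexamethasone together with lipopolysaccharide (LPS). From the 20 libraries of the series, 4 with Brg1 siRNA were set against 4 with control siRNA. The deposited table holds 17787 genes, and the 12061 that passed a filter on low values were all tested. The members were chosen by siRNA and treatment, as the labels give them, and not by any measured value. All cells were bone marrow-derived macrophages of male C57BL/6J mice, grown for a week in medium with supernatant of L929 cells, a fibroblast line that secretes the macrophage growth factor CSF-1. Both groups got 50 nM siRNA for 48 h under serum-free conditions, and for the last 6 h 100 ng/ml LPS with 1 µM dexamethasone. The same pair of siRNAs was also tested with LPS and the ethanol solvent, and with ethanol and buffer alone (vehicle), at 3 libraries per group. Silencing was transient and partial, and the labels name 1 siRNA product for each, so an effect of that product cannot be told apart from loss of the protein. Nothing in the labels says that replicates are separate mice or separate dishes. The p-values therefore measure only the spread within groups, taken over all 20 libraries of the series, which may be technical.

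Brg1, encoded by Smarca4, is an ATPase that powers the BAF complex, a machine that slides and evicts nucleosomes so that transcription factors can reach DNA. LPS is a component of the outer membrane of Gram-negative bacteria that macrophages sense through Toll-like receptor 4, which turns on NF-kappaB and, through a TRIF-dependent branch, interferon beta. Secreted interferon then acts back on the cell through a transcription factor that holds STAT2 and IRF9 and binds interferon-stimulated response elements in the promoters of antiviral genes. Dexamethasone is a synthetic ligand of the glucocorticoid receptor, a transcription factor that induces some genes directly and represses many inflammatory ones in macrophages.

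The promoters of 6 interferon-stimulated genes that rose in this comparison, 1 of them a signalling factor and 1 a chemokine, are shown because the results turn on such genes. They were picked among windows that hold the core of the interferon-stimulated response element. The windows run from 250 bases before to 50 bases after the annotated start, are taken from RefSeq on the GRCm38.p6 assembly and are written 5′ to 3′ on the gene's strand. Capitals mark each match to GAAANNGAAA or its reverse complement TTTCNNTTTC, searched on both strands. They are Rsad2 (chr12:26456403-26456702, minus strand), Oas3 (chr5:120777610-120777909, minus strand), Ifit3b (chr19:34607707-34608006, plus strand), Stat2 (chr10:128270248-128270547, plus strand), Cxcl10 (chr5:92348840-92349139, minus strand) and Gbp7 (chr3:142530086-142530385, plus strand).
Rsad2: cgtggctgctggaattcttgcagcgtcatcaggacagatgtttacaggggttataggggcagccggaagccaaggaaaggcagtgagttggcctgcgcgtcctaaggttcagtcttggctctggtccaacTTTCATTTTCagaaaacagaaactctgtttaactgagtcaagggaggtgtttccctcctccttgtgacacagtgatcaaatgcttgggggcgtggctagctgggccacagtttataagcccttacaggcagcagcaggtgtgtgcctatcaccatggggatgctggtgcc
Oas3: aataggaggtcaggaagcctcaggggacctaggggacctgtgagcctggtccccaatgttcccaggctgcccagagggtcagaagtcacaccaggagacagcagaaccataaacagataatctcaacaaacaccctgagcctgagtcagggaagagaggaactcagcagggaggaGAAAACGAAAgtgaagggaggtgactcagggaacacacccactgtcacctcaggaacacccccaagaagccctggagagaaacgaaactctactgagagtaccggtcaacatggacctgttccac
Ifit3b: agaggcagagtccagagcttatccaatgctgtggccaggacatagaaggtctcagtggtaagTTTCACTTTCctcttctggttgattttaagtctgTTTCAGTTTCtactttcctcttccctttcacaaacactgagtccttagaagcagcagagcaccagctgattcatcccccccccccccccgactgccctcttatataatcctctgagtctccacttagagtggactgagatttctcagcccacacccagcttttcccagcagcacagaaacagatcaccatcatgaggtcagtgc
Stat2: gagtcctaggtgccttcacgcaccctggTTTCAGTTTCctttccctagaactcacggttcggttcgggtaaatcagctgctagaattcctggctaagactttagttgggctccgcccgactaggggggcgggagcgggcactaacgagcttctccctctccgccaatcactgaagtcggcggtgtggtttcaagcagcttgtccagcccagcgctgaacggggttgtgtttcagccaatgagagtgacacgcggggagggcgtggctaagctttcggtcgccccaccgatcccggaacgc
Cxcl10: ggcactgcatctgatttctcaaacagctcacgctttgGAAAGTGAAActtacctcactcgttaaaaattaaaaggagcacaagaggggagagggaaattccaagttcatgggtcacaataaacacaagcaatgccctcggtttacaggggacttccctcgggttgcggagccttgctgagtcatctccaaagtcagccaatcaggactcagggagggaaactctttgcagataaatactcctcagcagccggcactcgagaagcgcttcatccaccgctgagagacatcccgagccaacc
Gbp7: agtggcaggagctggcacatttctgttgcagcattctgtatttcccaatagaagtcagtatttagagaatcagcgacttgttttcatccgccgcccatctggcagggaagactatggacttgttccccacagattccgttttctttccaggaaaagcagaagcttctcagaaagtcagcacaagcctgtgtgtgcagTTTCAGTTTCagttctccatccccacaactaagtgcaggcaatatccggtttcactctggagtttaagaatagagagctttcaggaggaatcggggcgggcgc

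Of the 12061 genes tested, 9368 had a window in this table, and 4.07% of those held the motif, against 3.99% of all 27025 genes with a window. The motif was found in 148 of 1815 genes called higher with Brg1 siRNA (8.15%), in 39 of 1483 called lower (2.63%) and in 194 of 6070 that were not called (3.2%). Among the list members that had a window, it was held by 11 of 20 antiviral effectors, 8 of 8 guanylate-binding and immunity-related GTPases, 4 of 12 interferon signalling factors, 2 of 9 nucleic acid sensors, 3 of 12 MHC class I genes and 1 of 14 chemokines. A match is a description of these letters and not evidence that a factor binds there.

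The 8 libraries held 13.86 to 16.74 M reads with Brg1 siRNA and 13.85 to 18.71 M with control siRNA, and all values below are normalized counts as the authors deposited them, given per library in the order of replicates 1 to 4. Control siRNA replicate 2 stood apart from its group. On the log2 scale its 3016 genes with the longest annotated transcripts (at least 4729 bases) deviated from the other 3 control libraries by a median of -0.29. Its 3018 genes with the shortest transcripts (at most 2129 bases) deviated by 0.23. The difference of these medians was -0.52 in that library, while it was -0.09 to 0.08 in the 4 Brg1 siRNA libraries and 0.12 to 0.22 in the other 3 control libraries. The replicates 4 of both groups carry library numbers of a higher series than the rest, and they separated from replicates 1 to 3 on the second principal component, which held 19.5% of the variance. The first component (30.4%) separated the siRNAs.

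**Figure D1:**
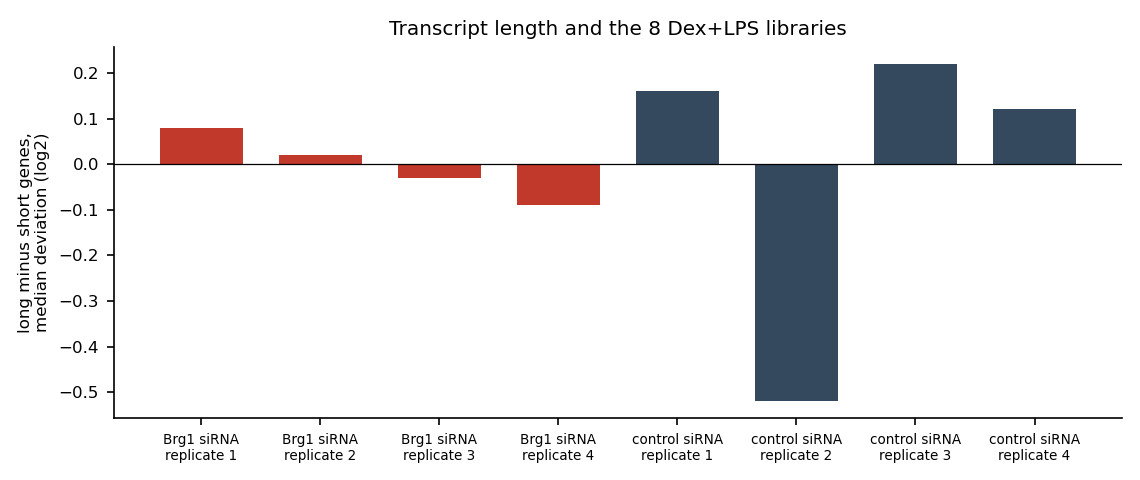
Difference between the genes with the longest and the shortest transcripts in their median deviation from the other libraries of the same group (log2 scale, vertical axis), for the 4 Brg1 siRNA libraries (red) and the 4 control siRNA libraries (dark blue) in Dex+LPS. Control siRNA replicate 2 lies at -0.52, and the other 7 libraries lie between -0.09 and 0.22.

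Smarca4 (ENSMUSG00000032187, chromosome 9, 21616169 to 21704230 in GRCm38), the targeted gene, measured 459.8, 414, 442 and 518 with Brg1 siRNA, against 2032, 1745, 1905 and 2181 with control siRNA. The groups did not overlap, and the log2 fold change was -2.10 (SE 0.0735, limma adjusted p = 1.31e-12). Smarca2, which encodes the alternative ATPase Brm, measured 114, 139, 152 and 173 with Brg1 siRNA, against 153, 89.8, 130.2 and 228 with control siRNA and was not called, with a log2 fold change of 0.01 (SE 0.285, limma adjusted p = 0.99). Over all genes, 2289 (19.0%) were higher and 1842 (15.3%) lower with Brg1 siRNA at a limma adjusted p under 0.05, and the median log2 fold change was 0.01. Counts of list members given below are to be read beside these shares of all genes. Past 1 on the log2 scale lay 456 of the higher and 337 of the lower genes. Among the 3016 genes with the longest transcripts 665 were higher and 348 lower, and without control replicate 2 the counts were 527 and 454. Among the 3018 genes with the shortest transcripts 434 were higher and 482 lower. Without control replicate 2 that order was reversed, at 495 higher and 365 lower. With counts scaled by plain library totals the calls were 1653 higher and 2847 lower, and the median of all genes lay at -0.09. Among the 25 tested BAF subunits, 5 were higher and 1 lower. Without 1 library the higher members fell to 2 (without Brg1 siRNA replicate 1) or 3 (without Brg1 siRNA replicate 2 or control replicate 2) and the lower ones numbered up to 3 (without control replicate 3). With plain library totals 2 were higher and 7 lower, so no direction is given for the complex. Arid1a, a DNA-binding subunit that defines the canonical complex, measured 2582, 2332, 2385 and 2260.4 with Brg1 siRNA, against 2059, 1428, 1916 and 2077 with control siRNA. For Arid1a the log2 fold change was 0.37 (SE 0.0933, limma adjusted p = 0.00502). Arid2 of the PBAF complex (log2 fold change 0.26, limma adjusted p = 0.0241) and the histone reader Dpf2 (0.26, limma adjusted p = 0.0424) lost their calls without control replicate 2, at limma adjusted p = 0.0781 and 0.0657. They also lost them without Brg1 siRNA replicate 1 or 2, and Dpf2 without control replicate 3 or 4. These are measurements on bulk RNA, in which fewer cells of a type and less RNA per cell cannot be told apart.

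Antiviral genes that interferon induces rose under Brg1 siRNA. Of the 25 tested antiviral effectors 24 were higher and 0 lower, with a median log2 fold change of 0.88, where all genes had 0.01. Rsad2, which makes a chain-terminating nucleotide against viral polymerases, measured 9494, 9053, 9501 and 8044 with Brg1 siRNA, against 3137, 1972, 2706 and 2559 with control siRNA. The lowest Brg1 siRNA library lay above the highest control library by more than the range of either group, and the log2 fold change was 1.81 (SE 0.111, limma adjusted p = 1.02e-09). Oas3, a sensor of double-stranded RNA that activates RNase L, measured 2777, 3030.3, 3108 and 3438 with Brg1 siRNA, against 1182, 813, 1120.2 and 1265 with control siRNA. For Oas3 the log2 fold change was 1.51 (SE 0.108, limma adjusted p = 6.62e-09). Oasl1, which in mice restrains translation of Irf7 mRNA, averaged 2610.4 ± 198 with Brg1 siRNA and 929 ± 121 with control siRNA (SD, n = 4 each) and rose by 1.49 on the log2 scale (limma adjusted p = 5.54e-09). Ifit3b, of a family that binds foreign RNA ends, averaged 402 ± 38.7 with Brg1 siRNA and 114 ± 11 with control siRNA (SD, n = 4 each), with a log2 fold change of 1.81 (limma adjusted p = 9.43e-10). It shares 55.2% of its 31-base words with other genes, mostly Ifit3, so reads may have been split between them. The exception was Ifitm3, a membrane protein that blocks virus entry, with 9465, 8868, 9249 and 9625 with Brg1 siRNA, against 9064, 10551, 9088 and 9327 with control siRNA. Its groups overlapped, and the log2 fold change was -0.03 (SE 0.0586, limma adjusted p = 0.741).

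Of the 5 tested interferon ligands and receptors 3 were higher and 2 lower. Ifnar1 and Ifnar2, the chains of the receptor for type I interferon, were both lower. Ifnar1 measured 1903, 1759, 1759 and 1789.5 with Brg1 siRNA, against 3011, 2582, 3041 and 2906 with control siRNA. For Ifnar1 the log2 fold change was -0.68 (SE 0.052, limma adjusted p = 1.69e-08), and Ifnar2 fell by 0.35 on the log2 scale (limma adjusted p = 0.000179). Ifngr1, the ligand-binding chain of the interferon gamma receptor, was higher, at 4139.8, 4525, 4526 and 4801 with Brg1 siRNA, against 2368, 2682, 2605 and 2664 with control siRNA, and its log2 fold change was 0.80 (SE 0.0565, limma adjusted p = 5.64e-09). Its partner Ifngr2 had a log2 fold change of 0.17 (limma adjusted p = 0.0355), a call that was lost in 8 of 19 alternatives, among them leaving out Brg1 siRNA replicate 1 or 2 or control replicate 3. Ifnb1, the interferon beta gene, had few counts in both groups, at 3.43, 2.23, 3.21 and 11.1 with Brg1 siRNA, against 1.81, 2.14, 1.02 and 0 with control siRNA. With LPS alone it averaged 46 ± 4.64 with Brg1 siRNA and 27.7 ± 7.4 with control siRNA (SD, n = 3 each). Its call (log2 fold change 1.34, limma adjusted p = 0.0221) was lost without Brg1 siRNA replicate 4 or control replicate 4, at limma adjusted p = 0.0853 and 0.0774, and the gene is named here after its values were seen.

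Of 14 tested interferon signalling factors 10 were higher and 0 lower (median 0.57), or 1 lower without Brg1 siRNA replicate 1 or control replicate 2. Irf7, the interferon regulatory factor that amplifies the response, measured 5336, 5605, 5984 and 6033 with Brg1 siRNA, against 2032, 1586, 1825 and 1991 with control siRNA. Each of the 4 Brg1 siRNA libraries held over 2 times the highest control value, and the log2 fold change was 1.63 (SE 0.0923, limma adjusted p = 3.96e-10). Stat2, a subunit of the interferon-activated transcription factor, averaged 2635 ± 53.9 with Brg1 siRNA and 1577 ± 216 with control siRNA (SD, n = 4 each), a log2 fold change of 0.75 (limma adjusted p = 1.3e-06). The feedback inhibitor Usp18, which strips ISG15 from proteins and blocks the receptor, averaged 2093 ± 92.9 with Brg1 siRNA and 1197 ± 102 with control siRNA (SD, n = 4 each) and rose by 0.81 log2 units (limma adjusted p = 1.57e-07). The receptor-associated kinase Jak1 was not called, at 4339 ± 210 with Brg1 siRNA and 4265 ± 321 with control siRNA (SD, n = 4 each) and a log2 fold change of 0.03 (limma adjusted p = 0.763).

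Sensors of foreign nucleic acid were higher in 9 of 14 tested genes and lower in 0 (median 0.55), or in 1 without control replicate 2. Zbp1, which detects left-handed nucleic acid and can start necroptosis, measured 3121, 3015, 3011 and 3071 with Brg1 siRNA, against 1382, 1186, 1187 and 1203 with control siRNA. For Zbp1 the log2 fold change was 1.30 (SE 0.0654, limma adjusted p = 9.58e-11). Ifi204, a DNA sensor of the PYHIN family that shares 34% of its 31-base words with other genes, measured 6891, 7429.7, 7147 and 6145 with Brg1 siRNA, against 3359, 2934, 3324 and 2734 with control siRNA. For Ifi204 the log2 fold change was 1.16 (SE 0.0875, limma adjusted p = 1.27e-08). Dhx58, an RNA helicase related to RIG-I, rose by 0.94 on the log2 scale (limma adjusted p = 7.86e-08), and Tlr3, the endosomal receptor for double-stranded RNA, by 2.10 log2 units (limma adjusted p = 0.00337) at 112, 99.2, 130.4 and 128 with Brg1 siRNA, against 61.6, 19.2, 10.2 and 39 with control siRNA. The kinases that relay these sensors, Tbk1 and Ikbke, were not called (log2 fold change 0.04, limma adjusted p = 0.558, and 0.16, limma adjusted p = 0.0723). Ikbke was called with DESeq2 (adjusted p = 0.0428) and, by limma, without Brg1 siRNA replicate 1 (0.0334) or control replicate 1 (0.045) or 4 (0.0481).

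The guanylate-binding proteins and immunity-related GTPases, which attack vacuoles that hold pathogens, were higher in 10 of 12 tested members and lower in 0 (median 0.72). Gbp7 measured 7195, 6753, 6713 and 6235 with Brg1 siRNA, against 3772, 1889, 3334 and 3191 with control siRNA. Control replicate 2 held the lowest of these values, and the log2 fold change was 1.19 (SE 0.149, limma adjusted p = 6.18e-06), or 0.97 without that library (limma adjusted p = 1.9e-07). Gbp9 rose by 1.77 log2 units (limma adjusted p = 1.06e-07). Iigp1, an immunity-related GTPase, measured 173, 161, 149.6 and 127 with Brg1 siRNA, against 47.1, 43.8, 48.8 and 50.5 with control siRNA. For Iigp1 the log2 fold change was 1.65 (SE 0.142, limma adjusted p = 6.92e-08). Tgtp2, which shares 90.5% of its 31-base words with other genes, mostly Tgtp1, rose by 0.97 log2 units (limma adjusted p = 0.000173), with the split of reads between the copies uncertain.

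Genes of antigen presentation on MHC class I were higher in 13 of 15 tested members and lower in 0 (median 0.58). H2-Q7, a nonclassical heavy chain gene with 39.1% of its 31-base words shared with other genes, mostly H2-K1, measured 3642, 3589, 3646 and 5392 with Brg1 siRNA, against 1889, 1789, 1530.2 and 2233 with control siRNA. For H2-Q7 the log2 fold change was 1.12 (SE 0.143, limma adjusted p = 7.65e-06). The peptide transporter subunit Tap1 measured 3167, 3105, 3099 and 3765 with Brg1 siRNA, against 1767, 1530.4, 1674 and 1913 with control siRNA. For Tap1 the log2 fold change was 0.93 (SE 0.084, limma adjusted p = 1.21e-07). Tapbpl, a peptide editor, rose by 0.91 log2 units (limma adjusted p = 1.04e-08) and Nlrc5, the transactivator of the class I genes, by 0.88 log2 units (limma adjusted p = 0.00497). The class II and costimulation list was divided, with 4 of 13 higher and 3 lower, or 1 lower without control replicate 2. Cd274, which encodes the checkpoint ligand PD-L1, measured 12602, 12081, 12056 and 11687 with Brg1 siRNA, against 8109.9, 5802, 7324 and 6829 with control siRNA. For Cd274 the log2 fold change was 0.80 (SE 0.0871, limma adjusted p = 1.21e-06), and the costimulator Cd80 rose by 0.91 log2 units (limma adjusted p = 1.04e-05). Cd74, the class II invariant chain, measured 4538, 4565, 4593 and 4983 with Brg1 siRNA, against 4995, 7492, 5576 and 6225 with control siRNA and fell by 0.36 log2 units (limma adjusted p = 0.00317). Cd40, at 16413 ± 1170 with Brg1 siRNA and 14953 ± 1170 with control siRNA (SD, n = 4 each), was not called (log2 fold change 0.14, limma adjusted p = 0.217).

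**Figure D2:**
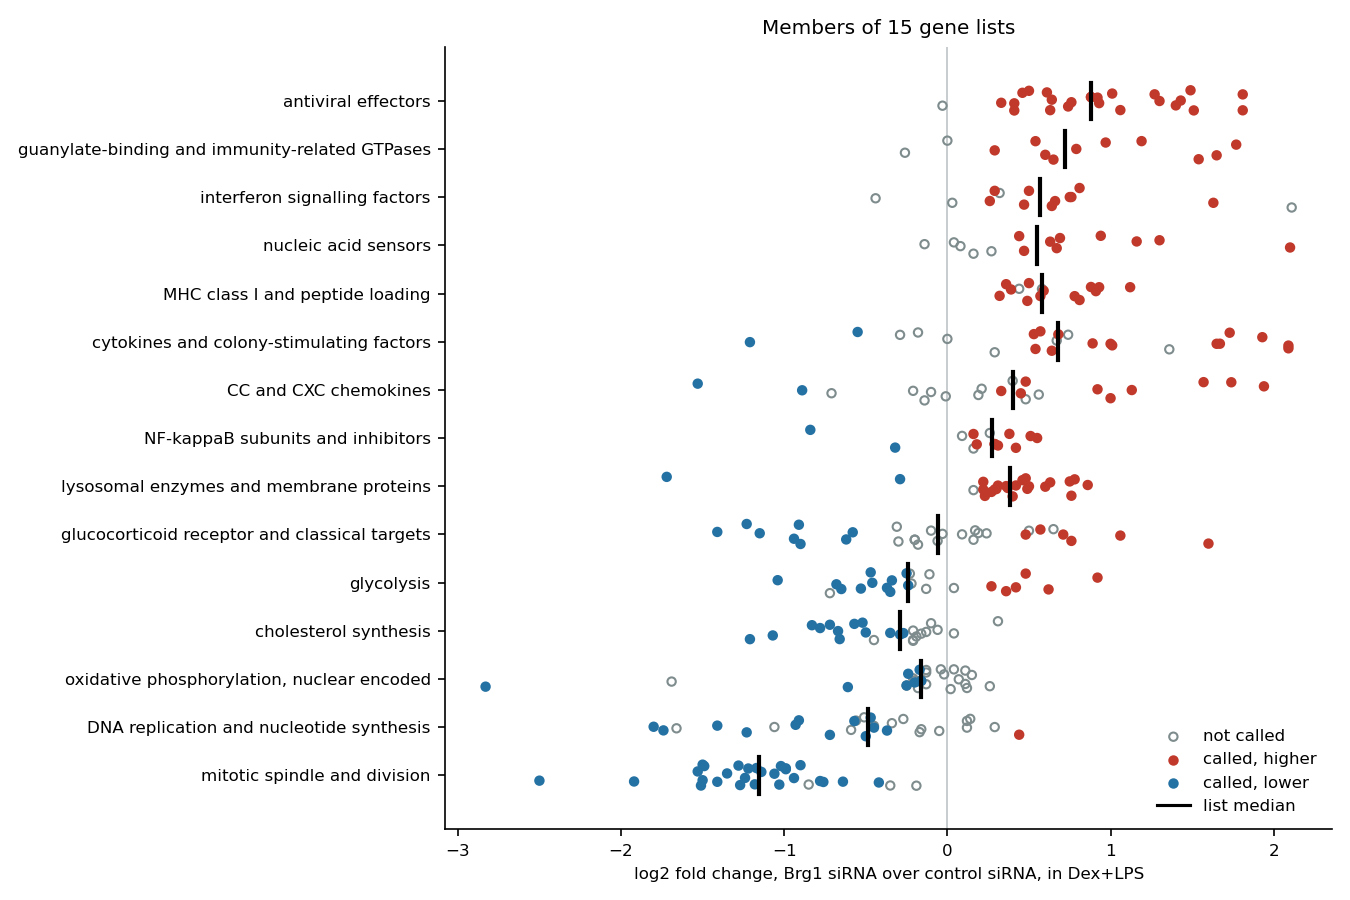
Log2 fold change, Brg1 siRNA over control siRNA in Dex+LPS (horizontal axis), of the tested members of 15 gene lists, with called members filled, uncalled members open and the list's median as a black bar. The antiviral effectors had a median of 0.88 with 24 of 25 called higher, and the mitotic genes a median of -1.15 with 27 of 30 called lower.

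Cytokines and chemokines were higher more often than lower, where all genes had 19.0% higher and 15.3% lower. Of 23 tested cytokines and colony-stimulating factors 14 were higher and 2 lower (median 0.68). Il12b, the shared p40 subunit of interleukins 12 and 23, measured 4660.3, 3709, 4119 and 3654 with Brg1 siRNA, against 1385, 724, 900.4 and 865 with control siRNA. The highest control value came from replicate 1, the groups did not overlap, and the log2 fold change was 2.09 (SE 0.365, limma adjusted p = 0.00021). Il1a, an alarmin of the interleukin-1 family, measured 5999.8, 4940.1, 5059.7 and 4194 with Brg1 siRNA, against 1792, 1151, 1312 and 1099 with control siRNA. For Il1a the log2 fold change was 1.93 (SE 0.173, limma adjusted p = 1.1e-07). Tnfsf9, the ligand of the costimulatory receptor Tnfrsf9, measured 8686, 9076, 8936 and 8853 with Brg1 siRNA, against 2456, 3253, 2751 and 2771 with control siRNA. For Tnfsf9 the log2 fold change was 1.67 (SE 0.0727, limma adjusted p = 1.61e-11), and Il23a, the other subunit of interleukin 23, rose by 1.65 log2 units (limma adjusted p = 6.39e-06). Il1rn, the secreted antagonist of the interleukin-1 receptor, measured 3269, 3033, 3034 and 2571 with Brg1 siRNA, against 1788, 1302, 1499.7 and 1387 with control siRNA. For Il1rn the log2 fold change was 1.00 (SE 0.0971, limma adjusted p = 3.01e-07). Csf3, the granulocyte growth factor G-CSF, measured 139.6, 118, 130.4 and 194 with Brg1 siRNA, against 156, 191, 141 and 220.4 with control siRNA and was not called (log2 fold change -0.29, limma adjusted p = 0.291).

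Among 21 tested chemokines 9 were higher and 2 lower (median 0.40), or 1 lower without any single one of Brg1 siRNA replicates 1, 3 and 4 and control replicates 2 and 4. Cxcl10 (ENSMUSG00000034855, chromosome 5, 92346638 to 92348889 in GRCm38), which draws T cells through Cxcr3, measured 6256, 5259, 6166 and 6086 with Brg1 siRNA, against 1743, 1374, 1443 and 1647 with control siRNA. Each Brg1 siRNA library held over 3 times the highest control value, and the log2 fold change was 1.94 (SE 0.115, limma adjusted p = 7.2e-10). Ccl4, a macrophage inflammatory protein, measured 16607, 16737, 18043 and 17673 with Brg1 siRNA, against 7760.1, 8581, 7209 and 7999.8 with control siRNA. For Ccl4 the log2 fold change was 1.13 (SE 0.0601, limma adjusted p = 1.96e-10). Ccl6 rose by 1.00 log2 units (limma adjusted p = 2.52e-09), and the monocyte attractant Ccl2 by 0.92 log2 units (limma adjusted p = 4.68e-06) at 304, 222, 241 and 227 with Brg1 siRNA, against 139, 130.4, 114 and 137 with control siRNA. Ccl3 and Ccl5, other CC chemokines, were not called. Ccl3 averaged 67752 ± 5290 with Brg1 siRNA and 59405 ± 7470 with control siRNA (SD, n = 4 each), a log2 fold change of 0.19 (limma adjusted p = 0.0731). It was called with the number series as a term (limma adjusted p = 0.00381), without the higher number series (0.0321), without Brg1 siRNA replicate 4 (0.025) and without control replicate 2 (0.0124). Ccl5 averaged 26483 ± 1450 with Brg1 siRNA and 23013 ± 3600 with control siRNA (SD, n = 4 each), a log2 fold change of 0.21 (limma adjusted p = 0.0624). Without control replicate 2 it was called, at 0.32 (limma adjusted p = 0.000894).

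Genes of prostaglandin synthesis and reception went both ways. Ptgs2, the inducible cyclooxygenase that commits arachidonic acid to prostaglandins, measured 23125, 20019, 20306 and 17798 with Brg1 siRNA, against 9978, 6213, 9379 and 8056 with control siRNA. For Ptgs2 the log2 fold change was 1.29 (SE 0.119, limma adjusted p = 1.6e-07). Ptges, which turns its product into prostaglandin E2, was lower, at 4441, 3785, 4151 and 4205 with Brg1 siRNA, against 9515, 9673, 9537 and 10956 with control siRNA, and its log2 fold change was -1.26 (SE 0.103, limma adjusted p = 3.74e-08). Of the receptors, Ptger4, through which prostaglandin E2 raises cyclic AMP, measured 133, 109, 109 and 131 with Brg1 siRNA, against 34.4, 42.7, 54.9 and 52 with control siRNA and rose by 1.39 log2 units (limma adjusted p = 1.43e-07). The prostacyclin receptor Ptgir fell by 0.97 log2 units (limma adjusted p = 1.34e-08). In all, 7 of 18 tested genes of prostaglandin and leukotriene synthesis and reception were higher and 4 lower, with 4 higher under plain library totals.

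NF-kappaB subunits and inhibitors were higher in 9 of 14 tested genes and lower in 2 (median 0.27). The DNA-binding subunit Rel averaged 3219 ± 157 with Brg1 siRNA and 2234 ± 409 with control siRNA (SD, n = 4 each), a log2 fold change of 0.55 (limma adjusted p = 0.000519). Its partner Rela averaged 2615 ± 308 with Brg1 siRNA and 1838 ± 174 with control siRNA (SD, n = 4 each), a log2 fold change of 0.51 (limma adjusted p = 6.93e-05). Tnip3, an inhibitor that works with A20, fell by 0.84 log2 units (limma adjusted p = 1.54e-06), and Nfkbia, the inhibitor IkappaB-alpha, at 14120.2 ± 813 with Brg1 siRNA and 12659 ± 930 with control siRNA (SD, n = 4 each), was not called (log2 fold change 0.16, limma adjusted p = 0.0736), but was without control replicate 2 (limma adjusted p = 0.0305), with the number series as a term (0.0404) and with DESeq2 (0.0499). Receptors for cytokines were higher in 8 of 19 and lower in 4, or in 2 without any 1 of Brg1 siRNA replicates 1 to 3 or without control replicate 4. Il13ra1, a chain of the receptor for interleukins 4 and 13, measured 698, 729, 691 and 654 with Brg1 siRNA, against 262, 240.5, 323 and 258 with control siRNA. For Il13ra1 the log2 fold change was 1.36 (SE 0.084, limma adjusted p = 1.11e-09). Csf3r, the G-CSF receptor, and Il10ra, the ligand-binding chain for interleukin 10, rose by 1.15 log2 units (limma adjusted p = 2.53e-09) and by 0.69 log2 units (limma adjusted p = 1.11e-09).

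The LPS-induced genes as a whole were taken from libraries that this comparison does not use. They are the 975 genes higher by at least 2 on the log2 scale in control siRNA libraries with LPS than with vehicle. With Brg1 siRNA under Dex+LPS 307 of them (31.5%) were higher and 180 (18.5%) lower, against 19.0% and 15.3% of all genes, and their median was 0.12. Of the 1223 genes lower by as much with LPS, 230 (18.8%) were higher and 186 (15.2%) lower, and the median was 0.00.

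The glucocorticoid receptor gene Nr3c1 measured 5023, 5072, 4756 and 4874 with Brg1 siRNA, against 3912, 2411, 4387 and 3720.2 with control siRNA. Control replicate 2 held the lowest value, and the log2 fold change was 0.48 (SE 0.122, limma adjusted p = 0.0047), or 0.30 without that library (limma adjusted p = 0.00119). With only the 2 compared groups in the fit the call was lost (limma adjusted p = 0.0559). Of the receptor and its classical targets, 6 of 29 tested genes (20.7%) were higher and 8 (27.6%) lower (median -0.06). All genes had 19.0% higher and 15.3% lower. Gadd45a, a stress protein linked to growth arrest, measured 396, 468, 402 and 415 with Brg1 siRNA, against 156, 138, 133 and 125 with control siRNA. For Gadd45a the log2 fold change was 1.60 (SE 0.0852, limma adjusted p = 1.96e-10). Mertk, a receptor for the engulfment of dying cells, measured 1926, 1970, 2013 and 1802 with Brg1 siRNA, against 1004, 818, 954 and 921 with control siRNA. For Mertk the log2 fold change was 1.06 (SE 0.0706, limma adjusted p = 2.76e-09). Klf9, a transcriptional repressor used as a marker of glucocorticoid action, was lower, at 284, 226, 254 and 234 with Brg1 siRNA, against 621, 618, 780.4 and 649 with control siRNA, and its log2 fold change was -1.41 (SE 0.13, limma adjusted p = 1.48e-07). The metallothionein Mt2 measured 4519.6, 4128, 4554 and 7207 with Brg1 siRNA, against 7438, 11493, 8106 and 12065 with control siRNA and fell by 0.94 log2 units (limma adjusted p = 0.000369). The replicates 4 were high in both groups for Mt2, and 73.5% of its exon bases lie opposite another annotated gene, which matters here because the strand that was counted is not given in the sources used here. Cdkn1a, an inhibitor of cyclin-dependent kinases, averaged 18521 ± 165 with Brg1 siRNA and 19883 ± 1090 with control siRNA (SD, n = 4 each) and was not called (log2 fold change -0.10, limma adjusted p = 0.0854), but was called lower with edgeR (adjusted p = 0.0241), DESeq2 (0.038), TMM factors before the log (0.0269) and plain library totals (0.000587).

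Of 18 tested AP-1 and immediate early factors 6 were higher and 3 lower. Fos, a partner of Jun in AP-1, was lower in every Brg1 siRNA library, at 86.9, 109, 96.2 and 93.3 with Brg1 siRNA, against 379, 268, 334 and 331 with control siRNA, and its log2 fold change was -1.75 (SE 0.153, limma adjusted p = 8.34e-08). Ier2 rose by 0.79 log2 units (limma adjusted p = 0.00324) and Atf3, a factor that dampens inflammatory genes, by 0.49 log2 units (limma adjusted p = 4.76e-05).

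Among the factors that set macrophage identity, 9 of 20 tested genes were higher and 2 lower (median 0.31). With plain library totals 5 were higher, and without control replicate 1 or 2, 1 was lower. Bhlhe40, a repressor of interleukin 10 in myeloid cells, measured 397, 436, 457 and 415 with Brg1 siRNA, against 166, 149.6, 138 and 151 with control siRNA. For Bhlhe40 the log2 fold change was 1.49 (SE 0.0708, limma adjusted p = 5.4e-11). Klf6 averaged 7881 ± 536 with Brg1 siRNA and 4320.5 ± 376 with control siRNA (SD, n = 4 each), a log2 fold change of 0.87 (limma adjusted p = 5.39e-09). Nr1h3, the oxysterol receptor LXR-alpha, measured 2115, 2181, 2458 and 3067 with Brg1 siRNA, against 1197, 1370.1, 1092 and 1445 with control siRNA. For Nr1h3 the log2 fold change was 0.94 (SE 0.119, limma adjusted p = 6.81e-06). Pparg, a lipid-sensing receptor, measured 74.4, 79.2, 75.9 and 21.2 with Brg1 siRNA, against 115, 136, 92.6 and 79.6 with control siRNA and fell by 0.88 log2 units (limma adjusted p = 0.0302). The call was lost without control replicate 1 or 2, at limma adjusted p = 0.0654 and 0.0875. Spi1, the lineage-defining factor PU.1, was not called, at 5761 ± 545 with Brg1 siRNA and 5812 ± 527 with control siRNA (SD, n = 4 each) and a log2 fold change of -0.01 (limma adjusted p = 0.916).

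Receptors for uptake and for chemical signals went both ways. Of 27 tested phagocytic and scavenger receptors 12 were higher and 7 lower. Clec7a, the beta-glucan receptor Dectin-1, measured 1223, 1262, 1203 and 1075 with Brg1 siRNA, against 570, 601, 635 and 517 with control siRNA. For Clec7a the log2 fold change was 1.04 (SE 0.0811, limma adjusted p = 2.04e-08). Marco, a scavenger receptor for bacteria and particles, was lower, at 4144, 3997, 4283 and 4357 with Brg1 siRNA, against 7240, 10739, 7531 and 8339.5 with control siRNA. It fell by 1.00 log2 units (limma adjusted p = 1.8e-07), and the inhibitory lectin Clec4a2 fell by 1.02 log2 units (limma adjusted p = 2.47e-07). Chemokine and purinergic receptors were higher in 8 of 20 and lower in 3, or in 5 without control replicate 2. P2ry13, a receptor for ADP, measured 514, 475, 500.1 and 427 with Brg1 siRNA, against 97.9, 83.4, 107 and 92.6 with control siRNA. For P2ry13 the log2 fold change was 2.32 (SE 0.142, limma adjusted p = 1.02e-09). Ccrl2, a receptor that presents chemerin without signalling, measured 1924, 1988, 1937 and 2062 with Brg1 siRNA, against 567, 472, 582 and 609 with control siRNA. For Ccrl2 the log2 fold change was 1.83 (SE 0.102, limma adjusted p = 3.54e-10). Fpr2, a receptor for formylated bacterial peptides that shares 43% of its 31-base words with other genes, fell by 0.75 log2 units (limma adjusted p = 0.00045).

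Of 14 complement genes 6 were higher and 2 lower, or 4 higher and 4 lower under plain library totals. C3, the central component, measured 40295, 38917, 40591 and 39722 with Brg1 siRNA, against 28936, 27522, 21878 and 23114 with control siRNA. For C3 the log2 fold change was 0.66 (SE 0.0801, limma adjusted p = 4.04e-06), and C3ar1, the receptor of its fragment C3a, rose by 0.71 log2 units (limma adjusted p = 1.24e-08). Itgax, the alpha chain of complement receptor 4 and a dendritic cell marker, was lower, at 590.3, 602, 659 and 569 with Brg1 siRNA, against 2009.8, 1894, 2017 and 2074 with control siRNA, and its log2 fold change was -1.72 (SE 0.0646, limma adjusted p = 3.26e-12). The 9 dendritic cell markers, Itgax included, summed to 3116 to 4051 with Brg1 siRNA and 3839 to 4266 with control siRNA. Itgax itself made up 569 to 659 and 1894 to 2074 of these sums, so they carry its fall. With Itgax left out, the sum was higher in every Brg1 siRNA library than in any control library. Of 4 tested markers 1 rose and 1 fell, and Siglech was at 0 in all 8 libraries. The part of dendritic cells in the Itgax result was not tested. The complement initiator C1qb, at 16168 ± 1090 with Brg1 siRNA and 17499 ± 2620 with control siRNA (SD, n = 4 each), was not called (log2 fold change -0.11, limma adjusted p = 0.322), other than under plain library totals (limma adjusted p = 0.0472).

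Lysosomal enzymes and membrane proteins were higher in 21 of 24 tested genes and lower in 2 (median 0.39). Lgmn, an endopeptidase that processes antigens, measured 14482, 15724, 16006 and 15735 with Brg1 siRNA, against 8538, 10017, 8559 and 8911 with control siRNA. For Lgmn the log2 fold change was 0.78 (SE 0.0531, limma adjusted p = 3.5e-09). Npc2, which hands cholesterol out of lysosomes, averaged 22255 ± 1540 with Brg1 siRNA and 13211 ± 1380 with control siRNA (SD, n = 4 each), a log2 fold change of 0.76 (limma adjusted p = 9.82e-08). Mpeg1, the pore-forming protein of phagosomes, averaged 98829 ± 4000 with Brg1 siRNA and 54711 ± 3940 with control siRNA (SD, n = 4 each), a log2 fold change of 0.86 (limma adjusted p = 1.85e-09). In the opposite direction Ctsk, a collagen-degrading cathepsin typical of osteoclasts, measured 53.8, 46.8, 45.9 and 41.6 with Brg1 siRNA, against 158, 193, 133 and 149 with control siRNA. For Ctsk the log2 fold change was -1.72 (SE 0.147, limma adjusted p = 6.15e-08). The 10 macrophage markers summed to 352917 to 361868 with Brg1 siRNA and 281954 to 325301 with control siRNA, with 5 higher and 3 lower.

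Of 25 tested genes of cholesterol synthesis 14 fell and 0 rose (median -0.29). Acat2, which condenses acetyl-CoA at the start of the pathway and shares 43.7% of its 31-base words with other genes, mostly Acat3, measured 214, 161, 235 and 198 with Brg1 siRNA, against 422, 496, 451 and 496 with control siRNA. For Acat2 the log2 fold change was -1.21 (SE 0.101, limma adjusted p = 4.61e-08). Fdft1, the squalene synthase, and Mvd, the mevalonate decarboxylase, had log2 fold changes of -0.83 (limma adjusted p = 7.08e-05) and -0.78 (limma adjusted p = 0.000461). Of the 20 enzymes 14 were lower, and none of the 5 tested regulators and uptake genes was called. In the efflux and storage list 7 of 19 were higher and 3 lower. Apoe, which carries cholesterol out of the cell, measured 18003, 18915, 19068 and 22616 with Brg1 siRNA, against 8983, 11988, 8656 and 10534 with control siRNA. For Apoe the log2 fold change was 0.98 (SE 0.0908, limma adjusted p = 1.74e-07), and the lipid droplet coat protein Plin2 rose by 0.88 log2 units (limma adjusted p = 8.13e-09).

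In glycolysis 11 of 23 tested genes fell and 6 rose (median -0.24). With plain library totals, 3 were higher. Pgam1, the phosphoglycerate mutase, measured 3501, 3491, 3363 and 3554 with Brg1 siRNA, against 5115, 6173, 5414 and 5654 with control siRNA. For Pgam1 the log2 fold change was -0.68 (SE 0.0539, limma adjusted p = 2.41e-08), with 37.1% of its 31-base words shared with other genes, mostly a pseudogene. Pfkl, the liver form of phosphofructokinase, fell by 0.65 log2 units (limma adjusted p = 0.00219) and its groups overlapped. Hk3, a hexokinase of myeloid cells, was higher, at 3391, 3671, 3912 and 4867 with Brg1 siRNA, against 1784, 2100, 1882 and 2632 with control siRNA, and its log2 fold change was 0.92 (SE 0.118, limma adjusted p = 7.78e-06). Ldha was not called, at 5380.3 ± 381 with Brg1 siRNA and 5793 ± 482 with control siRNA (SD, n = 4 each) and a log2 fold change of -0.11 (limma adjusted p = 0.226), other than under plain library totals (limma adjusted p = 0.0266). Of 27 nuclear genes of oxidative phosphorylation 7 fell and 0 rose (median -0.16). Without control replicate 2, 2 were higher, and without control replicate 4, 1 was. With edgeR 11 were lower, and with plain library totals 13. Ndufb8 of complex I measured 424, 497, 502 and 508 with Brg1 siRNA, against 703, 861, 665 and 718 with control siRNA. For Ndufb8 the log2 fold change was -0.61 (SE 0.0838, limma adjusted p = 1.86e-05), and Atp5a1 of the ATP synthase fell by 0.25 log2 units (limma adjusted p = 0.000406). Transcripts of the mitochondrial genome made up 0.969% to 1.437% of the reads with Brg1 siRNA and 1.247% to 1.886% with control siRNA, lowest in replicate 4 of each group. Acod1, which makes the antimicrobial metabolite itaconate, was not called, at 148544 ± 5090 with Brg1 siRNA and 146472 ± 4530 with control siRNA (SD, n = 4 each) and a log2 fold change of 0.02 (limma adjusted p = 0.842).

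In the mitosis list 27 of 30 tested members fell and 0 rose, with a median of -1.15. Ccnb1, the cyclin that drives entry into mitosis, measured 90.4, 90.3, 105 and 104 with Brg1 siRNA, against 275, 236, 337 and 272 with control siRNA. For Ccnb1 the log2 fold change was -1.50 (SE 0.181, limma adjusted p = 3.85e-06). Anln, a scaffold of the cleavage furrow, measured 40, 34.6, 38.5 and 36 with Brg1 siRNA, against 139.5, 108, 185 and 154 with control siRNA. For Anln the log2 fold change was -1.92 (SE 0.145, limma adjusted p = 1.33e-08). Ccna2, the cyclin of S phase and early mitosis, and Birc5, the survivin subunit of the chromosomal passenger complex, had log2 fold changes of -1.51 (limma adjusted p = 2.73e-07) and -1.49 (limma adjusted p = 9.42e-08). Nusap1, a spindle protein, measured 207, 192, 244 and 178 with Brg1 siRNA, against 220.2, 235, 262 and 213 with control siRNA. Its groups overlapped, and it was not called (log2 fold change -0.19, limma adjusted p = 0.252).

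In replication and nucleotide synthesis 12 of 28 tested genes fell and 1 rose (median -0.48), or 0 rose without Brg1 siRNA replicate 2 or control replicate 4. Rrm2, the S phase subunit of ribonucleotide reductase, measured 37.7, 23.4, 40.6 and 38.8 with Brg1 siRNA, against 133, 108, 123 and 125 with control siRNA. For Rrm2 the log2 fold change was -1.80 (SE 0.208, limma adjusted p = 2.47e-06). Tyms, which makes thymidylate, and Mcm6 of the replicative helicase had log2 fold changes of -1.23 (limma adjusted p = 0.000372) and -0.50 (limma adjusted p = 8.78e-05), while Pcna, the sliding clamp, was not called (log2 fold change -0.05, limma adjusted p = 0.627). In the E2F, G1 cyclin and inhibitor list 6 of 22 tested genes (27.3%) were higher and 2 (9.09%) lower. All genes had 19.0% and 15.3%, and the list's median was -0.03. When single libraries were left out, 1 to 3 members were lower (1 without any one of Brg1 siRNA replicates 1, 2 and 3 or control replicates 1, 3 and 4, and 3 without control replicate 2). Under plain library totals 6 were higher and 4 lower. Rbl1, the pocket protein p107, measured 747, 702, 766 and 562 with Brg1 siRNA, against 401, 227, 366 and 277 with control siRNA. For Rbl1 the log2 fold change was 1.15 (SE 0.148, limma adjusted p = 8.54e-06). Ccne1, the G1 cyclin E1, rose by 1.12 log2 units (limma adjusted p = 1.25e-05) and Cdkn1b, the inhibitor p27, by 0.75 log2 units (limma adjusted p = 0.00021). E2f8, an atypical repressor of the family, rose by 0.53 log2 units (limma adjusted p = 0.000939).

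Mitotic promoters are known for paired CCAAT boxes, and the Ccnb1 window (chr13:100786437-100786736, minus strand, RefSeq on GRCm38.p6) is shown with its 2 boxes in capitals.
Ccnb1: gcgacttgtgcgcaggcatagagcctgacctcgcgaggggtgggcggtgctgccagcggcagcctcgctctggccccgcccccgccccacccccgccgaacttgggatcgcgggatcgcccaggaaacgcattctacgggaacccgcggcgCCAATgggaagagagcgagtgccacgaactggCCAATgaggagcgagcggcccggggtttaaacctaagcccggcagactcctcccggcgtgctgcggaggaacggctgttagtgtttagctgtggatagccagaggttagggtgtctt

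A CCAAT box on either strand (CCAAT or ATTGG) was held by 22 of the 25 mitotic genes with a window (88%), against 43.1% of the genes tested and 41.1% of all genes with a window. It was held by 47.9% of the genes called lower, 38.1% of those called higher and 43.4% of those not called, and by 17 of the 18 cholesterol synthesis genes with a window (94.4%). The cell cycle genes homology region was searched only as TTTGAAA or its reverse complement TTTCAAA, and other forms of it were not counted. These letters were held by 8 of the 25 (32%), against 5.26% of the genes tested and 7.48% of all. Their share was 5.39% in the genes called lower, 6.45% in those called higher and 4.88% in those not called.

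The stress lists held calls in both directions. Of 19 tested genes of the unfolded protein response and of ATF4, 4 (21.1%) were higher and 8 (42.1%) lower. Without control replicate 3, 5 were lower. Ern1, the stress sensor IRE1, rose by 0.56 log2 units (limma adjusted p = 0.00011) and Psat1, an enzyme of serine synthesis, fell by 0.61 log2 units (limma adjusted p = 0.000277). Of 15 p53 targets 2 (13.3%) were higher and 4 (26.7%) lower, where all genes had 19.0% and 15.3%. Under plain library totals 7 were lower, and without the libraries numbered in the higher series 2 were. Among the p53 targets were Plk2, a kinase, with a log2 fold change of 0.52 (limma adjusted p = 7.96e-07) and Phlda3, an inhibitor of Akt, with -1.07 (limma adjusted p = 6.2e-06).

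The 15 largest rises and 15 largest falls are given here where no list above holds them. They were taken among called genes whose groups did not overlap and held no library at 0. The higher group had to average at least 100. Lilra6, Gm15448 and Gm14548 belong to the family of paired immunoglobulin-like receptors around Pirb. Lilra6 measured 321, 346, 367 and 360.1 with Brg1 siRNA, against 28.1, 58.8, 31.5 and 36.7 with control siRNA. For Lilra6 the log2 fold change was 3.19 (SE 0.209, limma adjusted p = 2.46e-09). Gm15448 had a log2 fold change of 2.53 (limma adjusted p = 2.81e-09) and Gm14548 of 2.21 (limma adjusted p = 5.88e-14). Lilra6 shares 49.6%, Gm15448 71.4% and Gm14548 83.9% of its 31-base words with other genes, so which copy rose is uncertain. The metalloproteinase Mmp27 measured 135, 148, 126 and 151 with Brg1 siRNA, against 25.4, 16, 22.4 and 9.95 with control siRNA. For Mmp27 the log2 fold change was 2.94 (SE 0.197, limma adjusted p = 3.03e-09). Cd200r4, an activating relative of the CD200 receptor, measured 1029.5, 1007, 1026 and 928 with Brg1 siRNA, against 226, 219, 237 and 178 with control siRNA. For Cd200r4 the log2 fold change was 2.22 (SE 0.076, limma adjusted p = 1.19e-12). Cd33, a receptor for sialic acid, measured 793, 663, 713 and 717 with Brg1 siRNA, against 142, 168, 139 and 213 with control siRNA. For Cd33 the log2 fold change was 2.13 (SE 0.156, limma adjusted p = 8.8e-09).

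Channels and receptors were also among these rises. The calcium channel Trpm2 rose by 2.47 log2 units (limma adjusted p = 0.000343), the endolysosomal channel Mcoln3 by 2.19 log2 units (limma adjusted p = 1.61e-11) and the proton-sensing receptor Gpr65 by 2.01 log2 units (limma adjusted p = 6.56e-12). The ectoenzyme Enpp4 and the endocytic adaptor Reps2 rose by 2.09 log2 units (limma adjusted p = 3.8e-08) and by 2.05 log2 units (limma adjusted p = 9.86e-09). Zfp36l1, which binds AU-rich elements and promotes mRNA decay, measured 480.4, 449, 449 and 413 with Brg1 siRNA, against 77, 58.8, 61 and 56.6 with control siRNA. For Zfp36l1 the log2 fold change was 2.81 (SE 0.139, limma adjusted p = 8.91e-11). Of its exon bases 55.9% lie opposite another annotated gene.

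**Figure D3:**
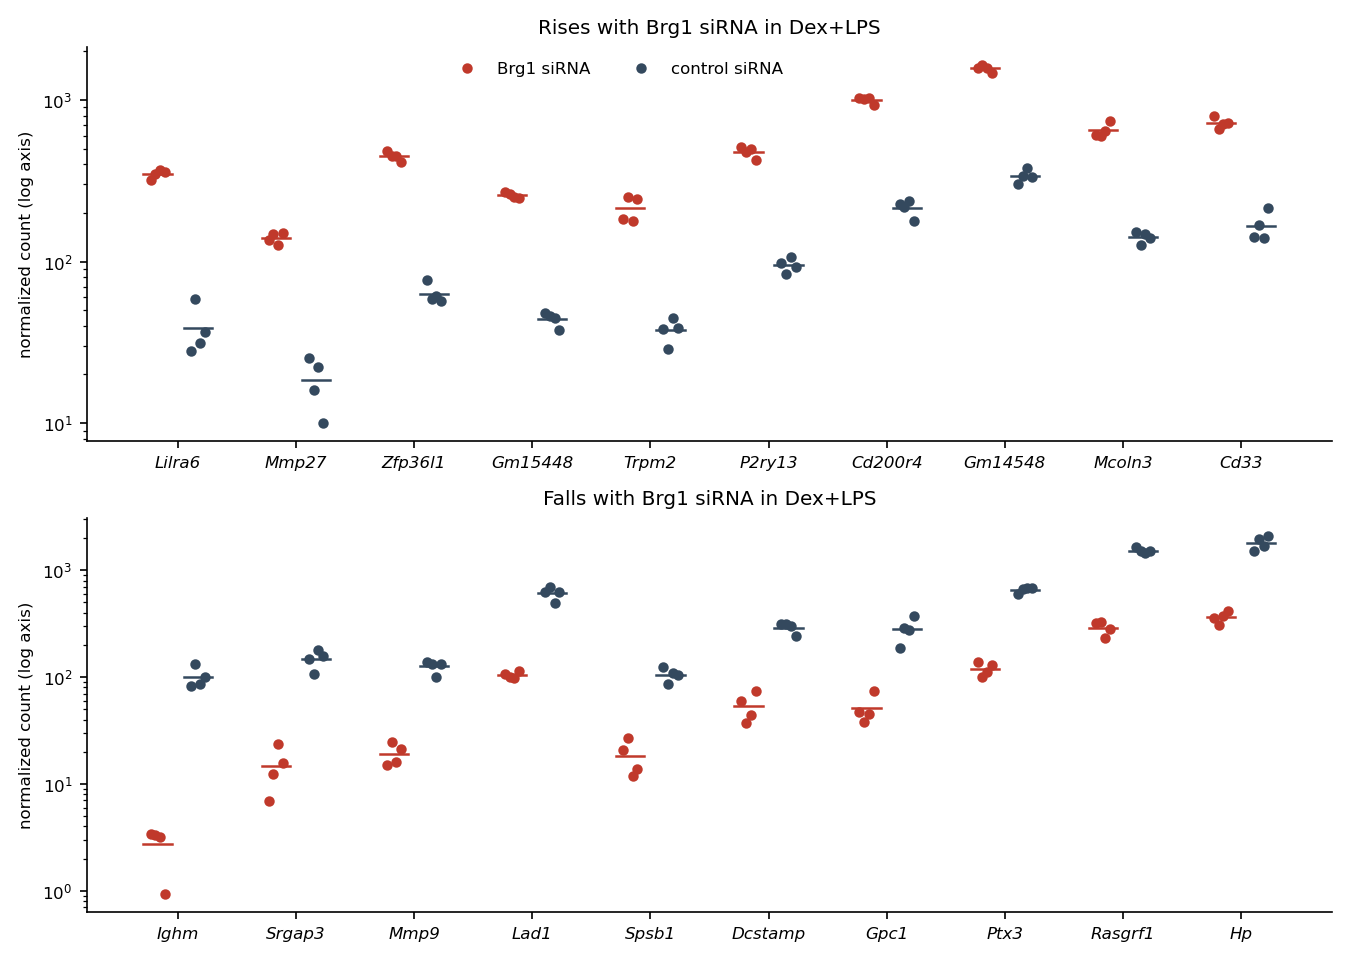
Normalized counts (log axis) of 10 of the largest rises (top) and 10 of the largest falls (bottom) in each of the 4 Brg1 siRNA libraries (red) and 4 control siRNA libraries (dark blue) in Dex+LPS, with group means as bars. The groups do not overlap for any of the 20 genes, since the choice required it, and Smarca4 is not among them.

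Among the largest falls was Ighm, the immunoglobulin mu heavy chain, at 3.43, 3.34, 3.21 and 0.923 with Brg1 siRNA, against 83.4, 133, 85.5 and 101 with control siRNA. For Ighm the log2 fold change was -4.82 (SE 0.255, limma adjusted p = 1.96e-10). Of 5 B cell markers with values, 3 were tested, of which Ighm was lower and 1 was higher. The markers, Ighm included, summed to 39.7 to 87 with Brg1 siRNA and 107 to 166 with control siRNA. Ighm itself made up 0.923 to 3.43 and 83.4 to 133 of these sums, so they carry its fall. The lower sum therefore does not show a fall of the other B cell markers. The part of such cells in the result was not tested. Srgap3, a GTPase-activating protein for Rac, measured 6.86, 12.3, 23.5 and 15.7 with Brg1 siRNA, against 147, 106, 179 and 157 with control siRNA. For Srgap3 the log2 fold change was -3.34 (SE 0.283, limma adjusted p = 5.59e-08). Rasgrf1, an exchange factor for Ras, measured 319, 326, 233 and 281 with Brg1 siRNA, against 1643, 1505, 1451 and 1513 with control siRNA. For Rasgrf1 the log2 fold change was -2.41 (SE 0.21, limma adjusted p = 8.35e-08). Dnah12, an axonemal dynein, measured 72.1, 11.1, 13.9 and 88.6 with Brg1 siRNA, against 229, 256, 134 and 240.3 with control siRNA, with a wide spread in the Brg1 siRNA group, and its log2 fold change was -2.67 (SE 0.556, limma adjusted p = 0.00108).

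Secreted and matrix proteins were also among the falls. Mmp9, a gelatinase, measured 14.9, 24.5, 16 and 21.2 with Brg1 siRNA, against 137, 133, 101 and 132 with control siRNA. For Mmp9 the log2 fold change was -2.67 (SE 0.185, limma adjusted p = 4.48e-09). Hp, the hemoglobin-binding haptoglobin, measured 361, 307, 374 and 413 with Brg1 siRNA, against 1525, 1956, 1678 and 2095 with control siRNA. For Hp the log2 fold change was -2.31 (SE 0.146, limma adjusted p = 1.46e-09). Ptx3, a soluble pattern recognition protein, measured 138, 101, 111 and 131 with Brg1 siRNA, against 599.9, 673, 679 and 682 with control siRNA. For Ptx3 the log2 fold change was -2.45 (SE 0.159, limma adjusted p = 2.08e-09). The proteoglycan Gpc1 fell by 2.45 log2 units (limma adjusted p = 4.74e-08), the basement membrane protein Lad1 by 2.53 log2 units (limma adjusted p = 1.48e-06), and the protease inhibitor Serpinb9b by 2.21 log2 units (limma adjusted p = 1.26e-09). Col4a1, a chain of basement membrane collagen, measured 62.9, 0, 67.3 and 89.6 with Brg1 siRNA, against 669.6, 470.2, 584 and 825 with control siRNA, so that 1 Brg1 siRNA library was at 0 beside the other 3. Its log2 fold change was -4.64 (SE 1.01, limma adjusted p = 0.00161). In the whole list of metalloproteinases, serpins and collagens 6 of 20 were higher and 7 lower.

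Dcstamp, needed for fusion of macrophages into giant cells and osteoclasts, measured 59.5, 36.8, 43.8 and 74.8 with Brg1 siRNA, against 315, 311, 298 and 240.3 with control siRNA. For Dcstamp the log2 fold change was -2.46 (SE 0.169, limma adjusted p = 4.14e-09). Fads2, a fatty acid desaturase, fell by 2.38 log2 units (limma adjusted p = 6.4e-09), Antxr1, an anthrax toxin receptor, by 2.24 log2 units (limma adjusted p = 0.00279), and Spsb1, a SOCS box adaptor, by 2.53 log2 units (limma adjusted p = 3.01e-06). Tmem176b, a membrane protein of myeloid cells, measured 291, 274, 249 and 258 with Brg1 siRNA, against 1147, 1545, 1049 and 1059.8 with control siRNA. For Tmem176b the log2 fold change was -2.14 (SE 0.13, limma adjusted p = 9.43e-10).

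The same siRNAs were compared with LPS alone and with vehicle, in libraries that the Dex+LPS comparison does not use. With LPS 2089 genes (17.3%) were higher and 1906 (15.8%) lower, and with vehicle 1132 (9.39%) and 1298 (10.8%), with 3 libraries per group instead of 4. Of the 2289 genes higher under Dex+LPS, 1432 were also higher with LPS, which is 62.6% of this list and 68.5% of the LPS list, and 30 were lower. Of the 1842 genes lower under Dex+LPS, 1186 were also lower with LPS (64.4% of the Dex+LPS list and 62.2% of the LPS list), and 11 were higher. With vehicle 809 genes were shared among the higher ones (35.3% of the Dex+LPS list and 71.5% of the vehicle list) and 726 among the lower ones (39.4% and 55.9% of the same lists), and 92 and 28 went the opposite way. In all 3 treatments 623 genes were higher and 554 lower. Conversely 671 genes were called higher and 484 lower under Dex+LPS and in neither other treatment. Of these, 38 and 16 were also called in both tests of a difference in the knockdown effect, against LPS and against vehicle.

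Tested as a difference, the knockdown effect in Dex+LPS minus that in LPS was called positive for 332 genes (2.75%) and negative for 147 (1.22%). Interferon-stimulated genes were among the positive ones. Of the 25 antiviral effectors 18 were called higher and 0 lower in this difference, of the 14 interferon signalling factors 6 and 0, of the 14 sensors 5 and 0, and of the 15 class I genes 1 and 0. Rsad2 averaged 56427 ± 5180 with Brg1 siRNA and 46363 ± 570 with control siRNA in LPS (SD, n = 3 each), a log2 fold change of 0.28 (SE 0.128, limma adjusted p = 0.106), where it was 1.81 in Dex+LPS. The difference of the 2 effects was 1.54 (SE 0.169, limma adjusted p = 3.97e-05). Cxcl10 averaged 23186 ± 729 with Brg1 siRNA and 17292 ± 1140 with control siRNA in LPS (SD, n = 3 each), a log2 fold change of 0.42 against 1.94 in Dex+LPS, and the difference was 1.51 (SE 0.176, limma adjusted p = 6.17e-05).

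For Oasl1 the log2 fold change was 1.49 in Dex+LPS and 0.16 in LPS, a difference of 1.34 (limma adjusted p = 8.98e-05). Irf7, Stat2, Usp18, Zbp1, Ifi204, Dhx58 and Tap1 showed the same direction, with differences of 0.80, 0.56, 0.71, 0.75, 0.78, 0.81 and 0.57 (limma adjusted p between 0.000266 and 0.0159). Stat2 lost that call when libraries of the higher number series were left out, and Ccl2 lost its call below in 9 of 19 alternatives. The class I genes Tapbpl (0.06, limma adjusted p = 0.836) and H2-Q7 (-0.34, limma adjusted p = 0.495) were not called in the difference. Neither were Il12b (0.66, limma adjusted p = 0.629) and Lilra6 (0.42, limma adjusted p = 0.59). Ptgs2 had log2 fold changes of 1.29 in Dex+LPS and 0.27 in LPS, a difference of 1.02 (SE 0.182, limma adjusted p = 0.00296). For Ccl4 and Ccl2 the differences were 0.56 (limma adjusted p = 0.00136) and 0.63 (limma adjusted p = 0.0476).

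The 8 genes of smallest adjusted p in this difference, among those with a mean of at least 100 in a compared group, were Myadm, Pfkfb3, Ggta1, Marveld1, Themis2, Smim3, Il1rn and Fabp4. Myadm, a membrane protein of myeloid cells, averaged 8567 ± 226 with Brg1 siRNA and 5303 ± 141 with control siRNA in Dex+LPS (SD, n = 4 each), a log2 fold change of 0.69, against -0.20 in LPS, and the difference was 0.89 (SE 0.0529, limma adjusted p = 3.8e-08). Pfkfb3, an activator of glycolysis, had log2 fold changes of -0.25 in Dex+LPS and -1.96 in LPS, a difference of 1.71 (SE 0.108, limma adjusted p = 5.18e-08). Ggta1, a galactosyltransferase, and Marveld1, a membrane protein, had differences of 1.51 (limma adjusted p = 2.06e-07) and 1.41 (limma adjusted p = 3.94e-07). For Marveld1 the log2 fold change was -0.68 in Dex+LPS and -2.09 in LPS. Themis2, a signalling scaffold, had log2 fold changes of 0.86 in Dex+LPS and -0.23 in LPS, a difference of 1.09 (limma adjusted p = 1.62e-06), and Smim3 a difference of 1.38 (limma adjusted p = 5.46e-06).

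Il1rn changed direction: it averaged 10358 ± 922 with Brg1 siRNA and 15394 ± 1010 with control siRNA in LPS (SD, n = 3 each), a log2 fold change of -0.57 (SE 0.112, limma adjusted p = 0.000674), and rose in Dex+LPS, with a difference of 1.57 (SE 0.148, limma adjusted p = 6.73e-06). Fabp4, a fatty acid carrier, was the negative one of the 8. It averaged 2715 ± 76.3 with Brg1 siRNA and 2801 ± 454 with control siRNA in Dex+LPS (SD, n = 4 each) and was not called there, while in LPS it averaged 1025 ± 31.1 with Brg1 siRNA and 304 ± 61.4 with control siRNA (SD, n = 3 each), and the difference was -1.80 (SE 0.167, limma adjusted p = 5.46e-06). Fos fell less in Dex+LPS (log2 fold change -1.75) than in LPS (-3.57), a difference of 1.82 (limma adjusted p = 0.000179), and so did Mt2, a difference of 1.65 (limma adjusted p = 0.00119). Marco went the other way, with -0.76 (limma adjusted p = 0.00422). Smarca4 itself was not called in the difference (0.18, limma adjusted p = 0.486).

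**Figure D4:**
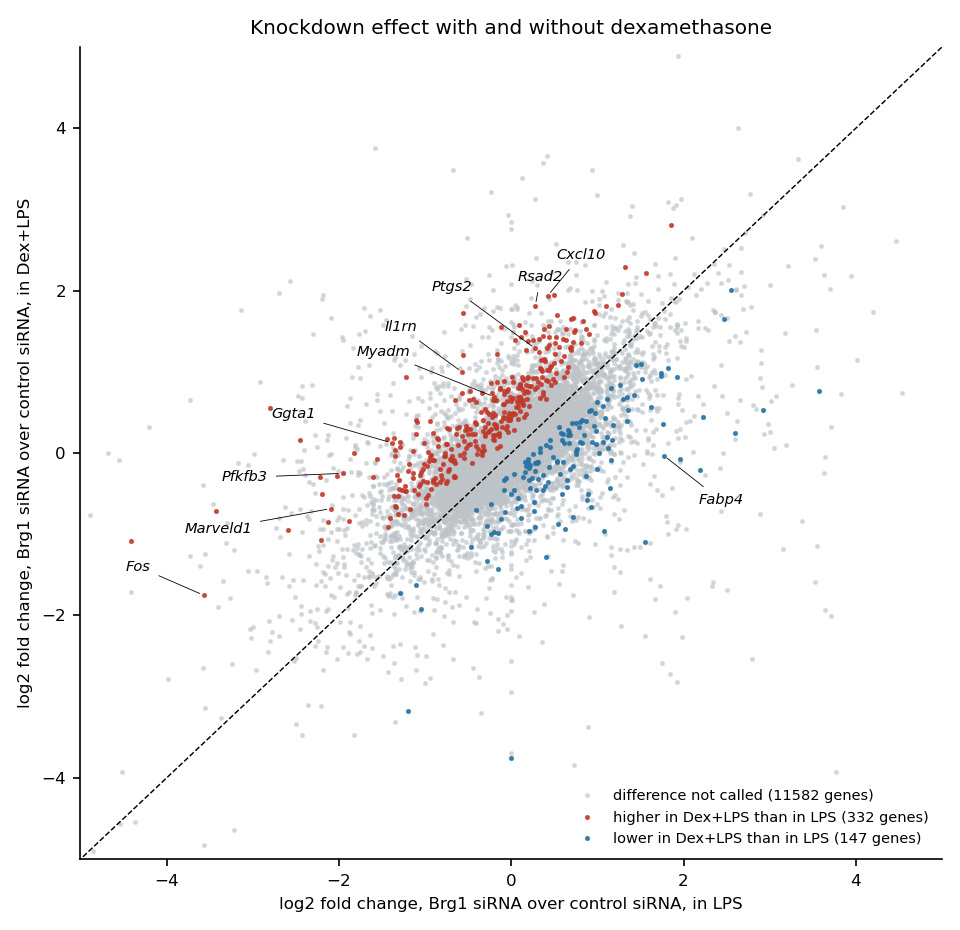
Log2 fold change, Brg1 siRNA over control siRNA, in Dex+LPS (vertical axis) and in LPS (horizontal axis), for the 12061 genes tested, with no library shared between the axes and the dashed line marking equal effects. Red points (332 genes) and blue points (147) are those whose difference was called, such as Rsad2 with 1.81 in Dex+LPS and 0.28 in LPS, and the axes end at 5, which leaves some genes outside.

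Against vehicle the difference was called positive for 740 genes (6.14%) and negative for 328 (2.72%). In vehicle 9.39% of tested genes were called higher with Brg1 siRNA and 10.8% lower. There the knockdown raised 17 of the 25 antiviral effectors, 6 of the 14 signalling factors, 5 of the 14 sensors, 9 of the 12 GTPases and 11 of the 15 class I genes, and lowered 1 sensor. The list medians in Dex+LPS and in vehicle were 0.88 and 0.49 for the effectors, 0.72 and 0.86 for the GTPases, and 0.58 and 0.60 for the class I genes. In the difference against vehicle 9 effectors were called higher and 1 lower, 5 signalling factors higher and 0 lower, 5 sensors higher and 1 lower and 1 GTPase in each direction, and the median difference of the class I genes was 0.11. Zfp36l1 is an example in which the treatments diverged. It averaged 448 ± 27.7 with Brg1 siRNA and 63.4 ± 9.28 with control siRNA in Dex+LPS (SD, n = 4 each), and 413 ± 64.8 with Brg1 siRNA and 433 ± 29 with control siRNA in vehicle (SD, n = 3 each), a difference of the log2 fold changes of 2.89 (SE 0.212, limma adjusted p = 8.67e-08). Tnfsf9 averaged 48.4 ± 4.54 with Brg1 siRNA and 52.5 ± 1.49 with control siRNA in vehicle (SD, n = 3 each), a log2 fold change of -0.12 against 1.67 in Dex+LPS, and the difference was 1.79 (SE 0.111, limma adjusted p = 1.51e-08). Cxcl10, which was hardly expressed in vehicle (43.2 ± 9.97 with Brg1 siRNA and 38.8 ± 5.65 with control siRNA, SD, n = 3 each), had a difference of 1.80 (limma adjusted p = 2.25e-06). Rsad2 had a log2 fold change of 1.39 in vehicle and was not called in this difference (0.43, limma adjusted p = 0.149), other than without control replicate 1 (limma adjusted p = 0.0445).

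The 8 genes of smallest adjusted p here, chosen in the same way, were Btg1, Bhlhe40, Zfp263, Tnfsf9, Antxr2, Ccl5, Gadd45a and Hs6st1. Bhlhe40, Gadd45a and Btg1, a brake on proliferation, were higher in Dex+LPS (log2 fold changes 1.49, 1.60 and 1.18) and had -0.50, -0.37 and -0.49 in vehicle, differences of 2.00, 1.97 and 1.68 (limma adjusted p = 4.17e-09, 2.62e-08 and 1.82e-09). Antxr2, an anthrax toxin receptor, Hs6st1, a heparan sulfate sulfotransferase, and the zinc finger protein Zfp263 had differences of 1.44 (limma adjusted p = 1.51e-08), 1.29 (limma adjusted p = 2.62e-08) and 1.14 (limma adjusted p = 4.46e-09). Gpr65 had 1.77 (limma adjusted p = 3.88e-08). Ccl5 was the negative one of the 8, with log2 fold changes of 0.21 in Dex+LPS and 2.29 in vehicle and a difference of -2.08 (SE 0.13, limma adjusted p = 1.51e-08). Klf9 and Ptges, both lower in Dex+LPS, had log2 fold changes of -0.18 and 0.06 in vehicle. The differences were -1.23 (limma adjusted p = 0.000482) and -1.32 (limma adjusted p = 2.3e-05). Ptx3 was at 0 in all 6 vehicle libraries, so no difference is given for it.

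**Figure D5:**
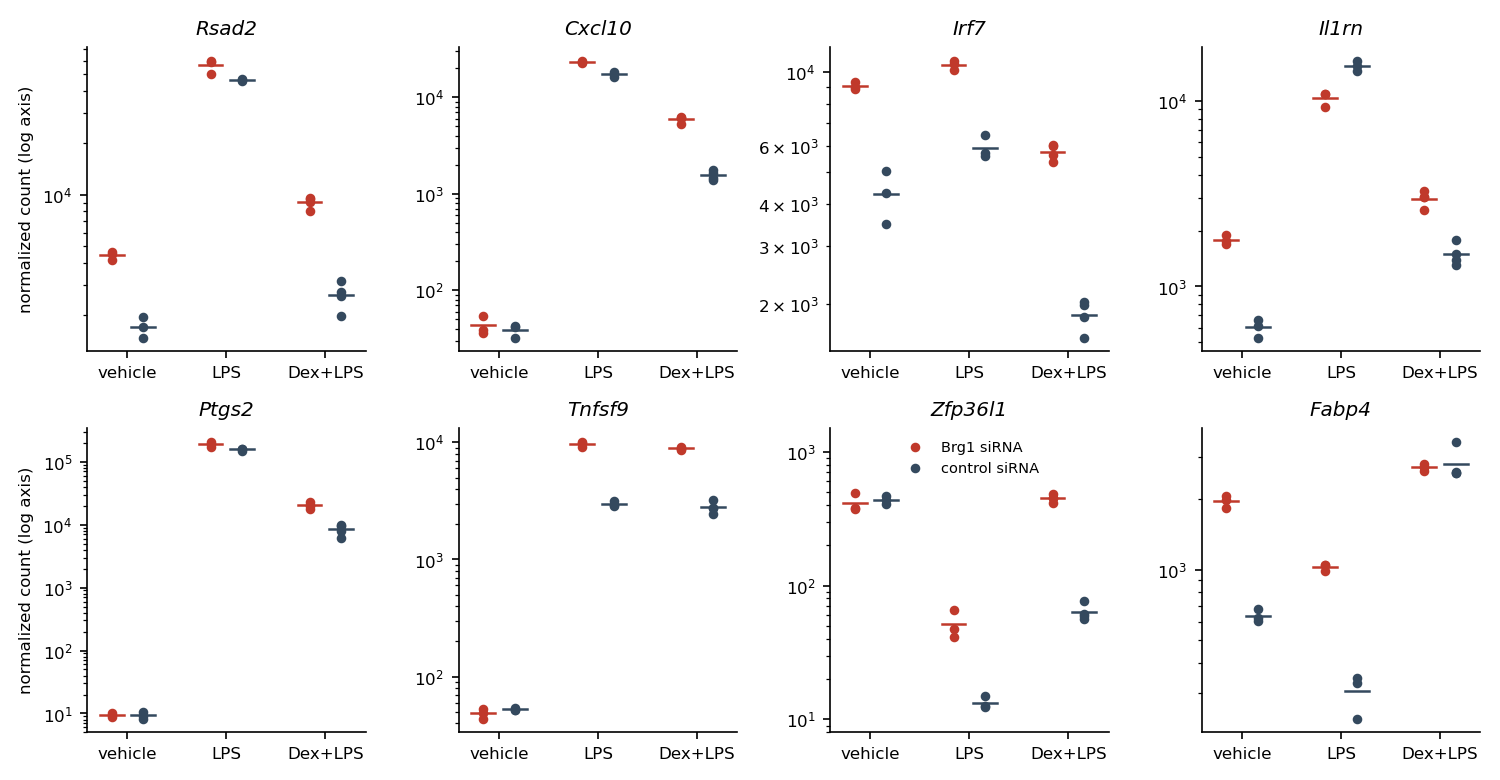
Normalized counts (log axis) of 8 genes in every library, by treatment (horizontal axis), with Brg1 siRNA in red, control siRNA in dark blue and group means as bars. Rsad2 and Cxcl10 are farther apart between the siRNAs in Dex+LPS than in LPS, Il1rn changes order between those treatments, and the Fabp4 groups meet in Dex+LPS only.

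Markers of cells that a marrow culture could also hold were present at low levels. Neutrophil markers summed to 549 to 636 with Brg1 siRNA and 403 to 532 with control siRNA, with 1 of 7 tested genes higher and 0 lower, and Elane was at 0 in all 8 libraries. Mast cell and basophil markers summed to 152 to 228 with Brg1 siRNA and 407 to 545 with control siRNA, with 1 of 3 tested genes higher and 2 lower. T and NK cell markers summed to 73.9 to 191 with Brg1 siRNA and 32.6 to 39.8 with control siRNA, with 2 of 3 tested genes higher and Cd2 at 0. Eosinophil markers summed to 21.7 to 36.3 with Brg1 siRNA and 44.4 to 53.5 with control siRNA, with 1 of 2 tested genes lower. Erythroid and platelet markers summed to 139.6 to 274 with Brg1 siRNA and 157 to 248 with control siRNA, with 1 of 2 lower. Fibroblast and stroma markers summed to 503 to 593 with Brg1 siRNA and 616 to 825 with control siRNA, with the 1 tested gene lower and Thy1 at 0. Some of these genes are also expressed by macrophages, and the part of such cells in the results above was not tested.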

How the data were processed

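RNA of bone marrow-derived macrophages was sequenced from libraries of a stranded mRNA kit, per the labels' protocols, and the submitters' processing notes name Salmon 1.4.0, DESeq and DESeq2 under R 4.1.0 and the build GRCm38.p6. The strand counted is not given in the sources used here. The values used are a signal that the authors deposited, gene counts divided by size factors, of which 99.95% came back as whole reads within 0.01 when multiplied out. The authors also deposited log2 fold changes and adjusted p-values of their own comparisons. The authors' deposited table calls 2334 genes higher and 1922 lower with Brg1 siRNA under Dex+LPS, of which 3993 were called the same way here and 0 the opposite way.

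A gene was tested where 3 or more of the 20 libraries had a normalized count of 10 or more (12061 of 17787 genes). limma 3.58.1 (R 4.3.3) was fitted with a trend to log2(normalized count + 1) over all 6 groups, and p-values were adjusted by Benjamini-Hochberg over all genes tested, with a threshold of 0.05. Adding 1 shrinks the fold changes of low genes, while a single library at 0 can enlarge a fold change on this scale, as for Col4a1. The adjusted p of each comparison is two-sided. edgeR 4.0.16 and DESeq2 1.42.0 on the recovered reads were alternatives, as were other scalings, pseudocounts and filters, leaving out each library, and a fit without the higher number series. A term for the number series was added after seeing the data. The fit was tested on simulated counts in which few genes were changed. These counts held no effect of transcript length or number series, so that test does not cover such effects in the calls above.

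The gene lists, the members and the tests were chosen with earlier results of these data known, and no p is given over a list alone. Named were Smarca4, Smarca2 and Nr3c1, up to 4 called members of each list with the largest change and a mean of at least 100 in a group, with up to 2 uncalled members of highest mean, the 15 largest rises and 15 largest falls (non-overlapping groups, mean of at least 100, no library at 0), and the 8 smallest adjusted p of each difference. Ifnb1 and some genes of the lists outside these limits (the interferon receptors among them) were named after their values were seen. Shared 31-base words and opposite-strand exon overlap were computed on annotated transcripts of the same build. A few genes that this rule names are not reported here.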

Additional observations from a re-analysis of the deposited data

Results flagged for a closer look

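In 26 of 316 groups of 4 libraries checked, 1 library lay apart from the other 3 by more than Dixon's 95% critical value, and chance flags about 1 in 20. Brg1 siRNA replicate 4 was the one apart for Ifnb1 (11.1), H2-Q7 (5392), Tap1 (3765), Cd74 (4983), Mt2 (7207) and Pfkl (1105), where it was highest, and for Pparg (21.2), Pcna (1993) and Ighm (0.923), where it was lowest. Control replicate 2 was highest for Nlrc5 (199.8), Ccl5 (28367), Cdkn1a (21518) and Fabp4 (3482) and lowest for Arid2 (747) and Pfkfb3 (10942). Brg1 siRNA replicate 1 was lowest for Ndufb8 (424) and highest for Ern1 (1036). Brg1 siRNA replicate 2 was lowest for Cxcl10 (5259) and Rrm2 (23.4) and highest for Ccl6 (1471). Brg1 siRNA replicate 3 was highest for Ptgir (428) and Atf3 (1007). Among the other control libraries, replicate 1 was highest for Zbp1 (1382) and lowest for Ptx3 (599.9), replicate 3 was lowest for Mmp9 (101) and replicate 4 was highest for Ptges (10956). All these values are normalized counts.

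The knockdown effect differed between treatments, by the interaction term of the limma fit, for genes given above. The log2 effect in Dex+LPS minus that in LPS was positive for Irf7 (0.80), Stat2 (0.56), Usp18 (0.71), Dhx58 (0.81), Ifi204 (0.78), Zbp1 (0.75), Rsad2 (1.54), Oasl1 (1.34), Tap1 (0.57), Cxcl10 (1.51), Ccl4 (0.56), Ccl2 (0.63), Il1rn (1.57), Ptgs2 (1.02), Mt2 (1.65), Fos (1.82), Pfkfb3 (1.71), Myadm (0.89), Ggta1 (1.51), Marveld1 (1.41), Themis2 (1.09) and Smim3 (1.38). It was negative for Marco (-0.76) and Fabp4 (-1.80). The effect in Dex+LPS minus that in vehicle was positive for Cxcl10 (1.80), Tnfsf9 (1.79), Gadd45a (1.97), Bhlhe40 (2.00), Zfp36l1 (2.89), Gpr65 (1.77), Btg1 (1.68), Zfp263 (1.14), Antxr2 (1.44) and Hs6st1 (1.29). It was negative for Ccl5 (-2.08), Ptges (-1.32) and Klf9 (-1.23).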

How the results depend on the processing

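No gene named above that was called reversed its direction in an alternative that was run. Of 154 genes of the lists and the text called in Dex+LPS, 139 kept the call in all alternatives and 15 lost it in some, while for the difference against LPS 22 of 24 and against vehicle 13 of 13 kept it. Leaving out 1 of the 8 libraries gave 2000 to 2247 genes higher and 1595 to 1832 lower, 260 to 347 positive and 110 to 169 negative differences against LPS, and 605 to 812 and 263 to 384 against vehicle. With only the 8 compared libraries in the fit the calls fell further, to 1678 genes higher and 1351 lower. With plain library totals 2847 genes were lower and 36.7% of the calls were higher, against 55.4% with the deposited scaling. The share was 48.3% with edgeR and 54.6% with DESeq2, and the medians of all genes were -0.03 and 0.01. Negative differences against LPS numbered 257 with DESeq2, 270 with the number series as a term, 88 with only the compared groups and 94 without the higher number series, where positive ones numbered 206. The cause of these shifts was not tested. Of 1178 counts of list members 1085 stayed within 1.5 times. Same-numbered libraries deviated together only for replicate 4 (correlation 0.406, against 0.063, 0.008 and 0.025 for replicates 1 to 3), so the numbers are not shown to pair the samples. A fit with a replicate block called 2230 genes higher and 1778 lower, and 270 and 106 in the difference against LPS. In LPS the higher number series holds control replicate 3 but Brg1 siRNA replicate 2, so the block joined libraries of different series there. Low counts limit the calls for genes such as Ifnb1. Calls of Arid1a and Nr3c1 were lost with only the compared groups in the fit.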

Other observations

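The nitric oxide, arginine and itaconate list held 9 tested genes, 1 higher and 1 lower (median 0.02, or -0.08 under plain library totals). Slc7a2, an importer of arginine, averaged 2135 ± 132 with Brg1 siRNA and 3566 ± 864 with control siRNA (SD, n = 4 each), a log2 fold change of -0.70 (limma adjusted p = 0.0333). Gch1, which makes the cofactor of nitric oxide synthase, averaged 1443 ± 302 with Brg1 siRNA and 1077 ± 167 with control siRNA (SD, n = 4 each), a log2 fold change of 0.41 (limma adjusted p = 0.0248). Nos2, the inducible nitric oxide synthase, averaged 2762 ± 171 with Brg1 siRNA and 1919 ± 215 with control siRNA (SD, n = 4 each), a log2 fold change of 0.53 (limma adjusted p = 0.125). Both calls of this list were lost without some single libraries, among them Brg1 siRNA replicate 4 and control replicates 1 and 3.

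Among the 17787 genes of the deposited file, 94 had a library at 0 while another of the same Dex+LPS group held at least 100, and 89 of these were tested. Of those, 6 were called, at log2 fold changes of -2.78 for Cacnb3, 4.89 for Rps6ka5, -4.57 for Gm45837, -4.54 for E2f6, -3.70 for Rps27 and -4.90 for Bend4. An exact 0 can be a failed estimate, so these folds are given as fitted values and not as bounds.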
